A study of Mus musculus with 10 samples.

Results

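The chemoattractant receptors Cx3cr1, Ccr1, Ccr6, Ccrl2, Cxcr4, Cmklr1 and Ackr1 were followed through the RNA of brain microglia from mice given GW2580, an orally available inhibitor of the CSF1R kinase, or vehicle. The 7 genes were chosen by symbol, with no threshold on measured values, and each symbol was matched to its NCBI gene identifier, which gave 7 of the 46152 genes counted. All 7 had at least 1 count in the 10 libraries, and 6 passed the filter for testing with 28419 genes in all. Adult C57BL/6J mice received 80 mg/kg/d GW2580 or vehicle alone (0.1% Tween 80 with 0.5% Hydroxymethyl Propyl-cellulose) by oral gavage for 8 days. Each group held 2 male and 3 female mice. Brain cells were dissociated enzymatically, enriched on Percoll and positively selected for CD11b, and 1 library was sequenced from each of the 10 mice. CD11b is carried by other myeloid cells as well as microglia, so the selection does not separate these.

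Chemoattractant receptors are membrane receptors that guide the movement of leukocytes along gradients of chemokines and other attractants, among them complement fragments, lipids and formyl peptides. Most of them couple to inhibitory G proteins, through which binding of the ligand rearranges the cytoskeleton, and a small group of atypical receptors binds ligand without that signal and instead captures or presents it. In the brain, CX3CR1 is a defining receptor of microglia, and its ligand fractalkine (Cx3cl1) is displayed and shed by neurons.

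The libraries held 12550418 to 20854218 assigned fragments with vehicle and 13228819 to 26079343 with GW2580. In a principal component analysis of 7580 genes, Vehicle 5 stood apart at 77.9 on the first component, against -40.5 to -35.0 for Vehicle 1 to 4, and GW2580 5 lay with those 4 at -45.8 whereas the other GW2580 libraries lay from -5.20 to 46.4. The changes of the members without these 2 libraries are shown in the plot of log2 fold changes. Microglia markers were abundant throughout, with a summed level of 25472 to 77750 CPM (counts per 1000000 assigned fragments, scaled by TMM factors) with vehicle, lowest in Vehicle 5, and 30985 to 103845 CPM with GW2580. Of the 17 microglia markers, 15 were tested, 11 of them with a log2 fold change above 0 and 4 below, and Aif1 was listed at 0 in every library. That value is of assigned fragments and does not show that the gene was not expressed.

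Cx3cr1 (gene 13051) lies on the minus strand of chromosome 9 at chr9:120048683-120068296 in GRCm38. On the same chromosome and strand lie Ccrl2 (gene 54199, chr9:111054834-111057518) and Ccr1 (gene 12768, chr9:123962126-123968692). The promoters of Cx3cr1, which passed the call given below, and of Ccr1, which did not, are shown as members on the same chromosome and strand. Whether either sequence bears on the level of its gene was not tested. Both sequences are from RefSeq (GRCm38.p6), run 5′ to 3′ on the minus strand from 250 bases before to 50 bases after the start, and carry in capitals the matches to the motifs searched.
Cx3cr1 promoter, chr9:120068247-120068546: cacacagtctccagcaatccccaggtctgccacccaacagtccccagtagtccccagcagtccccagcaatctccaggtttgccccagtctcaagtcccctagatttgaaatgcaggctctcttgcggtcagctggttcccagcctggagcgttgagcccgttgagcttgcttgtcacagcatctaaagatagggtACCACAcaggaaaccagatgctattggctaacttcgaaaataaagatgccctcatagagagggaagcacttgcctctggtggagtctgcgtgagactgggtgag
Ccr1 promoter, chr9:123968643-123968942: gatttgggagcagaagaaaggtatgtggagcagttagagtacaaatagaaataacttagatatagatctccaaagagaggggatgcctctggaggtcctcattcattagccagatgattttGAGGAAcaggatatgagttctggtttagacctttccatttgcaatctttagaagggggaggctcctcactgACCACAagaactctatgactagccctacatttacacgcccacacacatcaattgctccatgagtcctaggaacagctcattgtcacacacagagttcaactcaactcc
The motifs searched on both strands were the PU.1 core GAGGAA, the RUNX core TGTGGT, the AP-1 site TGANTCA and an interferon response element. Of 32851 mouse promoters of the same length, 28.3%, 16.8%, 7.81% and 3.44% held them, respectively. The Cx3cr1 window held 1 match, to the RUNX core on the reverse strand (ACCACA) at -54. The Ccr1 window held the same letters at -58 and the PU.1 core at -129, with no overlap between them. The Cmklr1 window held the PU.1 core at -98. Of the 2 windows of Ccr6, the first held the PU.1 core on the reverse strand at -218 and the RUNX core at 31. The windows of Cxcr4, Ackr1 and Ccrl2 (3 starts) did not hold these letters. A match in a promoter is a description of the sequence and not a measurement of binding.

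The receptors covered a very wide range of levels. Scaled per length (RPKM, CPM per kilobase of exon), Cx3cr1 averaged 678 ± 108 with vehicle (SD, n = 5), followed by Ccrl2 at 85.0 ± 29.7, Ccr1 at 11.3 ± 5.70, Cmklr1 at 6.00 ± 1.76, Cxcr4 at 2.27 ± 1.58 and Ccr6 at 1.33 ± 0.32. Cx3cr1 ranked 84 among the 28419 tested genes by mean RPKM with vehicle and 34 with GW2580, whereas Ccrl2 ranked 797 and 527, Ccr1 4617 and 4209, and Ccr6 18003 and 19112. The RPKM of Cx3cr1 was above that of Ccrl2, and that of Ccrl2 above that of Ccr1, in all 10 libraries without overlap of their ranges. Ccr1 was above Cmklr1 in 9 of 10 libraries, Cmklr1 above Cxcr4 in 8 of 10, and Cxcr4 above Ccr6 in 9 of 10, and in each of these 3 pairs the ranges of the neighbours overlapped. The upper end of the order was therefore separated by more than the spread between libraries and the lower end was not.

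**Figure D1:**
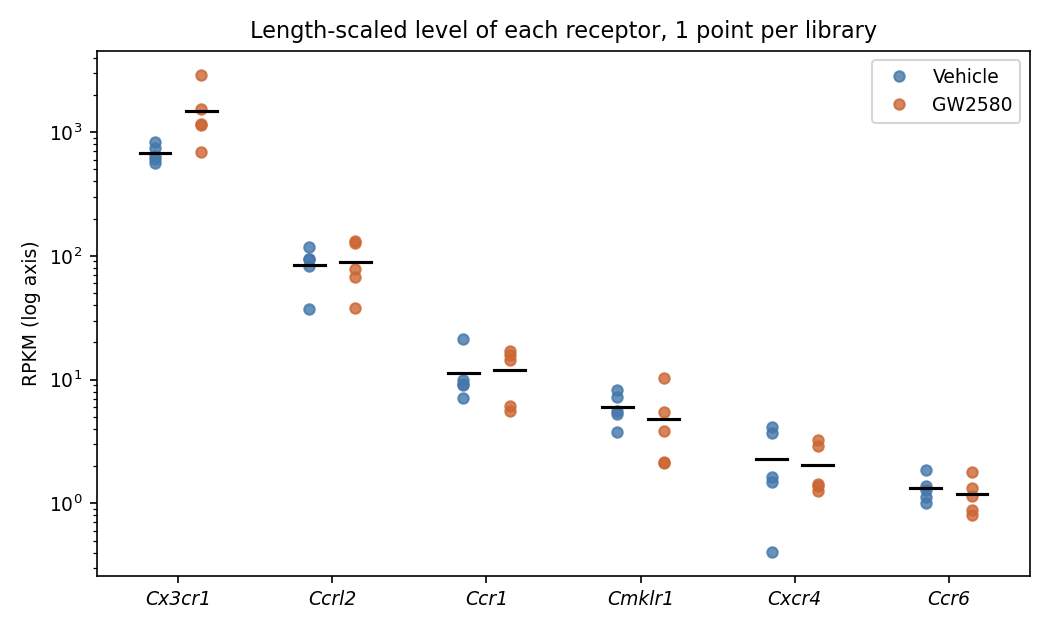
RPKM (log axis) of the 6 tested receptors, 1 point per library, blue for vehicle and orange for GW2580, with black bars at the group means. Cx3cr1 and Ccrl2 are separated from each other and from the rest, whereas Ccr1, Cmklr1, Cxcr4 and Ccr6 overlap their neighbours.

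Cx3cr1, the receptor for fractalkine, was higher after GW2580. Its level was 2414, 2129, 3113, 2797 and 2263 CPM in Vehicle 1 to 5 and 5778, 4304, 10938, 4368 and 2582 CPM in GW2580 1 to 5. GW2580 1 to 4 were above every vehicle library, GW2580 3 the highest after TMM scaling, and GW2580 5 lay within the vehicle range. The means were 2543 ± 405 CPM in vehicle libraries and 5594 ± 3195 CPM after GW2580 (n = 5 each, SD), a 2.20-fold difference and a log2 fold change of 1.14 ± 0.46 (SE; 95% interval 0.14 to 2.13). Cx3cr1 passed the call used by the study (fold change over 2 and unadjusted p under 0.05), as did 10.7% of all tested genes in either direction and 4.01% in the higher direction. The adjusted p of Cx3cr1 was 0.298 in edgeR. Of the 28419 genes, 0 (0%) had an adjusted p under 0.05, while 4186 (14.7%) had an unadjusted p under 0.05. The other tools found 232 (DESeq2), 28 (exact test of edgeR) and 0 (limma-voom) genes with an adjusted p under 0.05. By exact permutation of the libraries (252 splits, two-sided) Cx3cr1 had p = 0.0238, where 0.00794 was the smallest p possible. At least 4 of 5 GW2580 libraries lay above every vehicle library for 7.61% of tested genes.

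At TMM-scaled levels, the spread of Cx3cr1 among GW2580 libraries rests on GW2580 3. The TMM factors of the GW2580 libraries ran from 0.691 in GW2580 3 to 1.61 in GW2580 4. Before scaling, Cx3cr1 had 112512 counts among 15873682 assigned fragments in GW2580 1, and 196855 among 26079343 in GW2580 3. These libraries therefore lay closer together before scaling than after it. Among vehicle libraries the coefficient of variation was 15.9%, against a median of 44.8% over the tested genes, and among GW2580 libraries it was 57.1%, against a median of 40.9%. Without GW2580 3 it was 30.7% over 4 libraries, against a median of 34.6%. GW2580 3 was also highest for the summed microglia markers, with 103845 CPM, a value that carries the same TMM factor. Relative to the mean log2 level of the 15 tested microglia markers in the same library, Cx3cr1 was higher by 0.79 with GW2580 (two-sided exact permutation p = 0.0238), whereas the marker mean itself differed by 0.20 (two-sided exact permutation p = 0.595). The markers did not move together. Their log2 fold changes in edgeR ran from -0.88 to 1.28 with a median of 0.40, the highest above that of Cx3cr1. The rise was therefore not particular to Cx3cr1. In whole selected cell populations such as these, a change in the number of cells of a type and a change in RNA per cell cannot be told apart.

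The direction was the same in all 28 alternative analyses, with log2 fold changes from 0.75 to 1.30, and the call was kept in 15 and lost in 13. Without GW2580 3 the log2 fold change was 0.75 and no longer passed the call, and the call was also lost without Vehicle 1, 2 or 5 (1.07 to 1.11). It was also lost with limma-voom (0.98), with the replicate block (0.98), with the glial and neuronal marker mean added (1.03), without the filter (1.14), in males and in females. Without both Vehicle 5 and GW2580 5 it was 1.18 (adjusted p = 0.140 in edgeR).

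**Figure D2:**
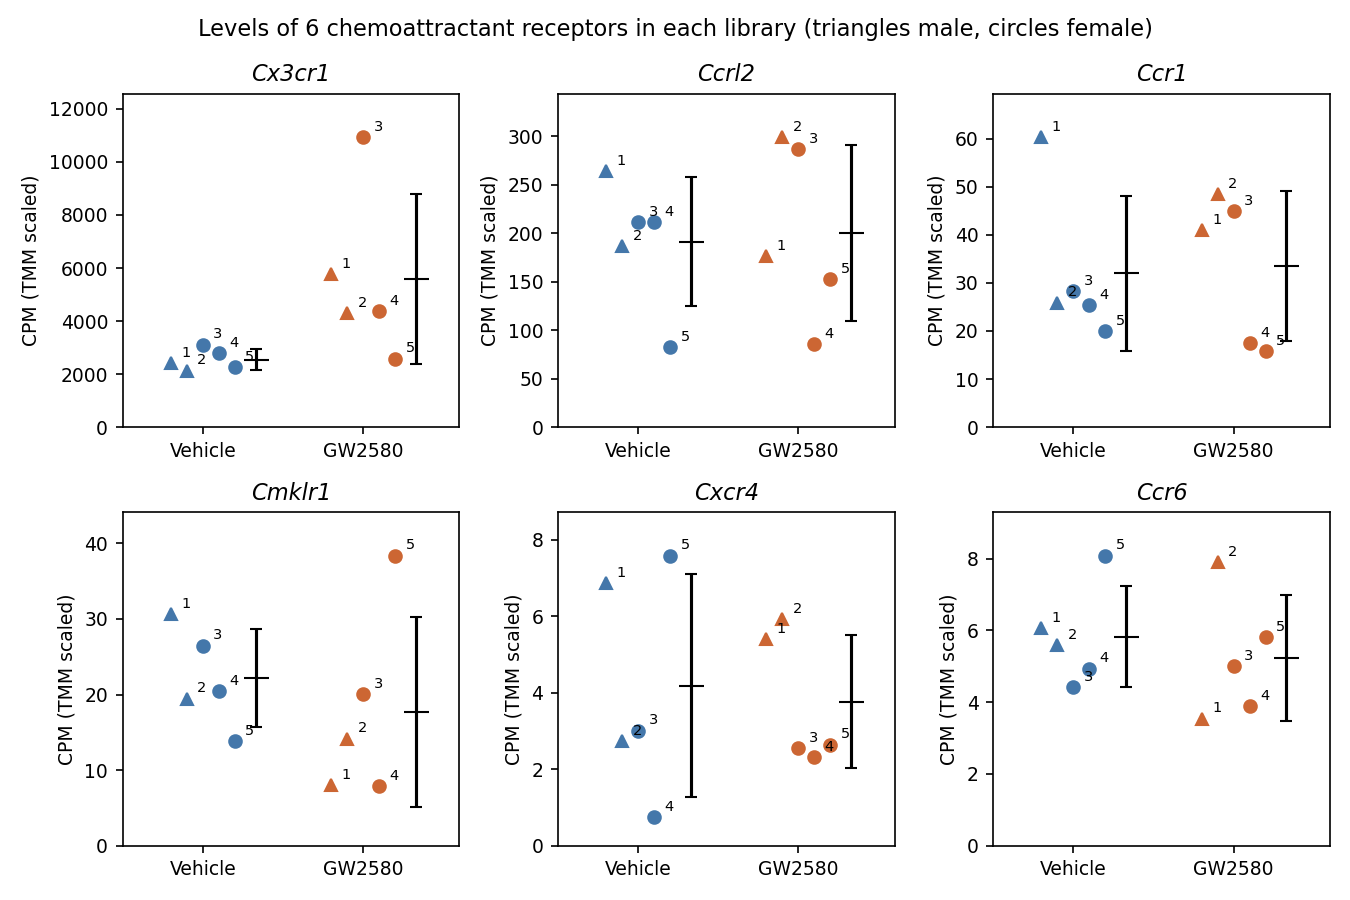
CPM (TMM scaled, linear axes from 0) of each receptor in each library, numbered by replicate, with triangles for male and circles for female mice and bars for the mean and SD of 5 libraries. For Cx3cr1, GW2580 1 to 4 lie above all vehicle libraries; in the other panels the groups overlap, with Ccr1 highest in Vehicle 1 and Cmklr1 highest in GW2580 5.

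A small stretch of Cx3cr1 is shared with an antisense gene. Strand was not used in counting, and 92 of the 3753 exon bases of Cx3cr1 are shared with Gm33858 on the opposite strand (gene 102636917, chr9:120063262-120071051), where reads of the 2 genes cannot be told apart. Gm33858 was far lower than Cx3cr1, at 48.2 ± 11.7 CPM in vehicle libraries and 71.3 ± 33.4 CPM after GW2580, a log2 fold change of 0.57 ± 0.35 (adjusted p = 0.452 in edgeR).

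The genes whose centred log2 CPM followed Cx3cr1 most closely over the 10 libraries, out of 7580 genes of at least 20 CPM, were Tfe3, Parp9, Pla2g15, Pros1 and Tpbgl. Tfe3 encodes a transcription factor of lysosomal genes, Pla2g15 a lysosomal phospholipase, and Pros1 the protein S ligand of TAM receptors. Their mean absolute differences from Cx3cr1 were 0.10, 0.12, 0.12, 0.13 and 0.13 log2 units, against a median of 0.59 over the genes compared. Pla2g15 was at 328 ± 45.2 CPM in vehicle libraries and 693 ± 455 CPM after GW2580, and Tpbgl at 70.0 ± 12.3 and 172 ± 122 CPM. The other chemoattractant receptors were less close, at 0.56 for Ccr1, 0.71 for Ccrl2, 0.77 for Ccr6, 0.90 for Cxcr4 and 1.07 for Cmklr1. The genes compared share libraries and therefore depth and scaling, and no test was made.

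Among the chemokine receptors, Ccr1, which binds inflammatory CC chemokines such as Ccl3 and Ccl5, did not differ beyond its spread. Its level was 60.3, 25.9, 28.3, 25.4 and 19.998 CPM in Vehicle 1 to 5 and 41.0, 48.5, 44.9, 17.5 and 15.8 CPM in GW2580 1 to 5. Vehicle 1 was the highest of all libraries, GW2580 1 to 3 lay above the other vehicle libraries, and GW2580 4 and 5 lay below every vehicle library. The log2 fold change was 0.07 ± 0.41 (95% interval -0.81 to 0.95; adjusted p = 0.950 in edgeR). Vehicle 1 was also highest for the summed markers of monocytes and granulocytes, with 30026 CPM against 1168 to 8808 CPM in the other vehicle libraries and 1844 to 15273 CPM with GW2580, and the part of these cells in the level of Ccr1 was not tested. Samhd1, Pirb and Lta4h followed Ccr1 most closely, at 0.19, 0.20 and 0.21 log2 units.

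Ccr6, the receptor for Ccl20, was the lowest of the tested members per length. It lies on chromosome 17 (gene 12458, plus strand, chr17:8236041-8258519). Its level was 6.06, 5.60, 4.43, 4.94 and 8.09 CPM in Vehicle 1 to 5 and 3.54, 7.91, 5.00, 3.88 and 5.82 CPM in GW2580 1 to 5, from 53 to 144 counts a library. Vehicle 5 and GW2580 2 were highest, and the groups overlapped. The log2 fold change was -0.16 ± 0.31 (95% interval -0.83 to 0.51; adjusted p = 0.834 in edgeR). Of its 4380 exon bases, 247 are shared with Gm33799 on the opposite strand, which was at 1.51 ± 0.90 CPM in vehicle libraries and 2.23 ± 0.79 CPM after GW2580. In Vehicle 5 the summed B cell markers were also highest (573 CPM against 96.1 to 274 CPM in the other 9 libraries), and their part in the level of Ccr6, a receptor that B cells carry, was not tested.

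Cxcr4, the receptor for Cxcl12, was low and variable. It lies on chromosome 1 (gene 12767, minus strand, chr1:128588199-128592299). Its level was 6.86, 2.73, 3.01, 0.746 and 7.58 CPM in Vehicle 1 to 5 and 5.39, 5.93, 2.56, 2.32 and 2.64 CPM in GW2580 1 to 5. Vehicle 4 was lowest and Vehicle 5 highest, so that the vehicle libraries spanned all GW2580 libraries. The value of Vehicle 4 rests on 13 counts, for which an exact 95% Poisson interval is 6.92 to 22.2 counts or 0.397 to 1.28 CPM, and that of Vehicle 5 on 135 counts. Such intervals cover counting error only. The log2 fold change was -0.15 ± 0.52 (95% interval -1.28 to 0.97; adjusted p = 0.910 in edgeR), and its sign turned under 11 of 28 alternatives. Lmnb1 and Fgr followed Cxcr4 most closely, at 0.35 and 0.39 log2 units against a median of 0.80.

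Cmklr1, a receptor for chemerin (Rarres2), had a difference whose size depended on GW2580 5. It lies on chromosome 5 (gene 14747, minus strand, chr5:113612355-113650475). Its level was 30.6, 19.5, 26.5, 20.4 and 13.8 CPM in Vehicle 1 to 5 and 8.01, 14.2, 20.1, 7.86 and 38.4 CPM in GW2580 1 to 5. GW2580 5 was the highest of all libraries, GW2580 1 and 4 lay below every vehicle library, and GW2580 2 and 3 lay within the vehicle range. Over all libraries the log2 fold change was -0.33 ± 0.43 (95% interval -1.25 to 0.60; adjusted p = 0.739 in edgeR; two-sided exact permutation p = 0.310). Without GW2580 5 it was -0.91 ± 0.37 (adjusted p = 0.178 in edgeR), and 17.6% of genes were called in that fit. Without Vehicle 5 and GW2580 5 it was -1.06 ± 0.32 (adjusted p = 0.0358 in edgeR), a fit in which 22.3% of genes were called and 17.8% had an adjusted p under 0.05. Leaving out these 2 libraries was chosen with their place in the principal component analysis known.

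By sex, Cmklr1 was at 25.03 CPM in male vehicle mice and 11.1 CPM in male GW2580 mice (n = 2 each), a log2 fold change of -1.27 ± 0.41 (adjusted p = 0.172 in edgeR; 19.2% of genes were called in males). In females it was at 20.2 and 22.1 CPM (n = 3 each), with a log2 fold change of 0.15 ± 0.61. GW2580 5 is a female library, and the difference between the sexes did not pass the test (interaction -1.30 ± 0.87, adjusted p = 1.000 in edgeR). For Cx3cr1 the log2 fold changes were 1.06 ± 0.56 in males and 1.14 ± 0.87 in females, with an interaction of 0.02 ± 1.13. For the other 4 tested receptors the interaction ranged from -0.03 ± 0.80 for Ccr1 to 0.84 ± 1.04 for Cxcr4, and an interaction with an unadjusted p under 0.05 was found for none of the 6.

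Of the atypical receptors, Ccrl2, which binds chemerin without signalling and presents it to neighbouring cells, was the second most abundant member. Its level was 264, 187, 211, 211 and 82.9 CPM in Vehicle 1 to 5 and 177, 299, 287, 85.9 and 152 CPM in GW2580 1 to 5. Vehicle 5 and GW2580 4 were lowest and GW2580 2 and 3 highest, and the groups overlapped. The log2 fold change was 0.07 ± 0.41 (95% interval -0.82 to 0.95; adjusted p = 0.952 in edgeR). The genes closest to Ccrl2 were Litaf, Cd53 and Clec5a at 0.12, 0.13 and 0.14 log2 units, Cd53 being a leukocyte tetraspanin and Clec5a a myeloid lectin. For Ccr6 the closest were D16Ertd472e, Mrpl45 and Pde8b (0.17, 0.17 and 0.19) and for Cmklr1 Chmp4b, Plpbp and Wasf2 (0.14, 0.16 and 0.17). Wasf2 encodes an activator of actin branching.

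Ackr1, an atypical receptor of endothelial and red blood cells that binds many chemokines, could not be measured from these counts. It is annotated on chromosome 1 (gene 13349, minus strand, chr1:173331886-173333503), and 1152 of its 1158 exon bases are also exon bases of Cadm3 on the same strand (gene 94332, chr1:173331892-173368139), which leaves 6 bases of its own. A fragment whose reads fall on exons of both genes is set aside as ambiguous by the counting used. Ackr1 had 1 count in Vehicle 3 and 0 in the other 9 libraries, where a count of 0 allows up to 3 counts or 0.142 to 0.217 CPM of fragments that can be assigned. This limit is for assigned fragments and not for expression of the gene. Cadm3, a cell adhesion molecule of neurons, was itself counted at 9.47 ± 4.37 CPM in vehicle libraries and 7.10 ± 2.27 CPM after GW2580.

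**Figure D3:**
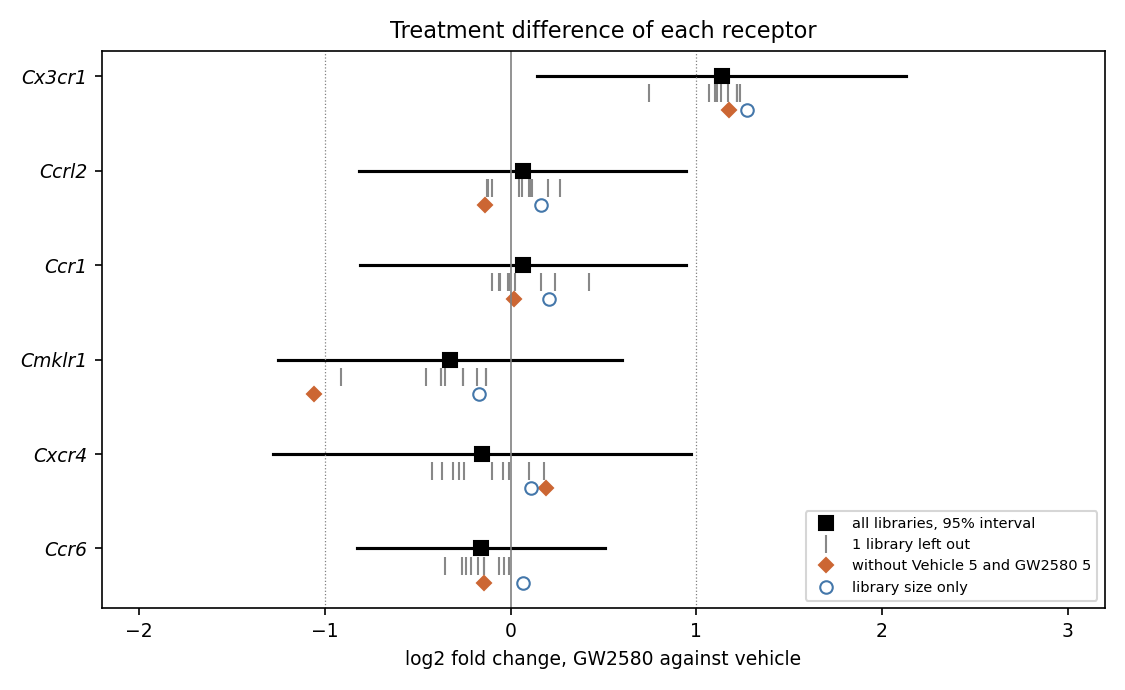
Log2 fold change of GW2580 against vehicle for the 6 tested receptors, with black squares and 95% intervals for all libraries, grey ticks for fits with 1 library left out, orange diamonds without Vehicle 5 and GW2580 5, and blue circles for scaling by library size only. Dotted lines mark the 2-fold difference. The interval is above 0 for Cx3cr1 alone, and Cmklr1 moves from -0.33 to -1.06 when the 2 libraries are left out.

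Each receptor was also taken against Cx3cr1 in the same library, which removes any factor that scales a whole library. Cx3cr1 itself was higher with GW2580 by 0.98 in mean log2 CPM, so a receptor with no difference of its own reads -0.98, and all 5 values share that term. The relative differences were -0.96 for Ccr1 and -0.96 for Ccrl2, whose own differences in log2 CPM were 0.03 and 0.02, and -0.88 for Cxcr4, -1.16 for Ccr6 and -1.52 for Cmklr1, whose own were 0.11, -0.18 and -0.53. No relative difference passed after adjustment over the 5 receptors (0.0794 for all but Cxcr4 at 0.278, two-sided exact permutation tests with Benjamini-Hochberg adjustment). In the RPKM summed over 37 chemoattractant receptors, Cx3cr1 made up 50.1, 55.3, 62.2, 60.5 and 63.3% in Vehicle 1 to 5 and 74.6, 62.1, 76.4, 78.6 and 64.1% in GW2580 1 to 5. GW2580 1, 3, 4 and 5 were above every vehicle library, GW2580 5 only just, and GW2580 2 lay within the vehicle range (two-sided exact permutation p = 0.0238). This share carries the rise of Cx3cr1 itself and is no measure of the other receptors.

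Among the wider list of 37 chemoattractant receptors, 36 were tested, and 5 passed the call, 3 higher and 2 lower with GW2580. Of the 36, 15 had a log2 fold change above 0 and 21 below, with a median of -0.13, against a median of -0.03 over all tested genes. With scaling by library size only, 22 were above 0 and 14 below (median 0.11 against 0.23 over all genes). Without Vehicle 5 and GW2580 5, 17 were above 0 and 17 below. The share called, 5 of 36, stood beside 10.7% of all tested genes (4.01% higher and 6.7% lower). Besides Cx3cr1, Ccr9 was higher, at 4.84, 1.68, 6.01, 5.05 and 4.33 CPM in Vehicle 1 to 5 and 10.3, 7.78, 9.89, 8.57 and 8.19 CPM in GW2580 1 to 5. Every GW2580 library lay above every vehicle library for this receptor of Ccl25, at a low level (log2 fold change 1.03 ± 0.33, adjusted p = 0.280 in edgeR). It was close to the 2-fold threshold and passed the call in 16 of 26 alternatives, with 0.75 to 1.38 over all of them. Unlike the 28 alternatives of the members, these hold no comparison with the microglia markers and no call at an adjusted p under 0.05. The other receptor that was higher is not reported singly. Cxcr1, a receptor of neutrophil chemokines, fell from 1.98 ± 1.63 to 0.52 ± 0.20 CPM (log2 fold change -1.92 ± 0.58, adjusted p = 0.280 in edgeR). Every GW2580 library was below 1 CPM (0.278 to 0.791), and Cxcr1 had 201 counts in all. It passed the filter only through vehicle libraries, where it was high, so its lower call carries that selection. Cxcr5, a receptor of B cells, fell from 4.06 ± 5.13 to 1.07 ± 0.59 CPM (log2 fold change -1.94 ± 0.69), and its vehicle mean rests on 13.1 CPM in Vehicle 5, the library with the most B cell markers. Without Vehicle 5 the log2 fold change of Cxcr5 was -0.75 and that of Cxcr1 -1.29, and the call of Cxcr5 was lost. The highest receptors of the list by mean RPKM over the 10 libraries were Cx3cr1 (1084), the complement receptor C5ar1 (97.7) and Ccrl2 (87.0), and C5ar1 had a log2 fold change of 0.33 ± 0.40.

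Of 10 ligands of the members, 8 were tested and none was called, although all 8 had a log2 fold change below 0 (-1.67 to -0.26, median -1.12), where 48.4% of all tested genes were above 0. With scaling by library size only, 7 were below 0, and without Vehicle 5 and GW2580 5, 6 were. In edgeR 0 of 8 had an unadjusted p under 0.05. With DESeq2 4 were called, with limma-voom 2 and with the exact test of edgeR 2, beside 10.7%, 10.6% and 11.9% of all genes, respectively. DESeq2 was run without the CPM filter, over 43091 genes, so its 4 are of all 10 ligands and not of the 8. Ccl3, a ligand of Ccr1, was the most abundant, at 2704, 1715, 1601, 1138 and 176 CPM in Vehicle 1 to 5 and 381, 816, 546, 114 and 1101 CPM in GW2580 1 to 5. Vehicle 5 was low among the vehicle libraries and GW2580 5 high among the GW2580 libraries (log2 fold change -1.31 ± 0.66, adjusted p = 0.367 in edgeR). Ccl6 was at 545 ± 262 and 243 ± 121 CPM (-1.16 ± 0.55) and Mif at 142 ± 38.5 and 80.3 ± 112 CPM (-0.83 ± 0.71). Without Vehicle 5 and GW2580 5, 5 of the ligands were called, each lower, beside 15.2% of all genes called lower, and Ccl3 was at -2.04, Ccl6 at -1.68 and Mif at -2.32. Cx3cl1, the ligand of Cx3cr1, was at 1.80, 7.42, 1.92, 1.21 and 58.3 CPM in Vehicle 1 to 5 and 2.41, 3.62, 4.56, 9.99 and 1.49 CPM in GW2580 1 to 5. Vehicle 5 alone was far above the rest (log2 fold change -1.67 ± 0.94, adjusted p = 0.412 in edgeR), and without it the log2 fold change was 0.52. Astrocyte markers were also highest in Vehicle 5 (1188 CPM against 158 to 560 CPM in the other 9 libraries), and neuron markers were second highest there (202 CPM, after 445 CPM in Vehicle 2), and their part in the level of Cx3cl1 was not tested. Ccl20 (17 counts in all) and Rarres2 (163 counts in all) did not pass the filter.

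Of 31 genes of receptor signalling and ligand shedding, 12 had a log2 fold change above 0 and 19 below (median -0.08), and 2 were called, beside 10.7% of all tested genes. With scaling by library size only, 19 were above 0 and 12 below. Without Vehicle 5 and GW2580 5, 17 were above 0 and 14 below, and 9 were called beside 22.3% of all genes. Adam10, a protease that sheds fractalkine, rose, with 65.5, 54.3, 65.0, 58.0 and 82.1 CPM in Vehicle 1 to 5 and 235, 92.1, 323, 169 and 61.9 CPM in GW2580 1 to 5. As for Cx3cr1, GW2580 1 to 4 were above every vehicle library and GW2580 5 was within their range (log2 fold change 1.44 ± 0.42, adjusted p = 0.280 in edgeR). It passed the call in 25 of 26 alternatives. Unlike the 28 of the members, these hold no comparison with the microglia markers and no call at an adjusted p under 0.05. Gnai1, an inhibitory G protein subunit, fell from 17.1 ± 21.7 to 3.08 ± 1.91 CPM (-2.47 ± 0.90). Its vehicle mean rests on Vehicle 2 (32.0 CPM) and Vehicle 5 (48.2 CPM), and the other vehicle libraries were at 1.17 to 2.24 CPM. Vehicle 2 and Vehicle 5 also held the most oligodendrocyte markers (15385 and 3777 CPM against 155 to 1505 CPM in the other 8), astrocyte markers (560 and 1188 CPM) and neuron markers (445 and 202 CPM), and their part in the level of Gnai1 was not tested. Without Vehicle 2 and Vehicle 5 the log2 fold change of Gnai1 was 0.76, and without Vehicle 5 alone it was -1.59 and the call was lost. Gnai1 passed the call in 17 of 26 alternatives, and scaling by library size only (-1.95) and limma-voom (-1.18) were among those that lost it. The most abundant genes of the list were Rgs2, Rgs1 and Gnai2, with mean RPKM of 606, 420.0 and 376 and log2 fold changes of -0.41 ± 0.58, -0.15 ± 0.46 and 0.21 ± 0.39.

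**Figure D4:**
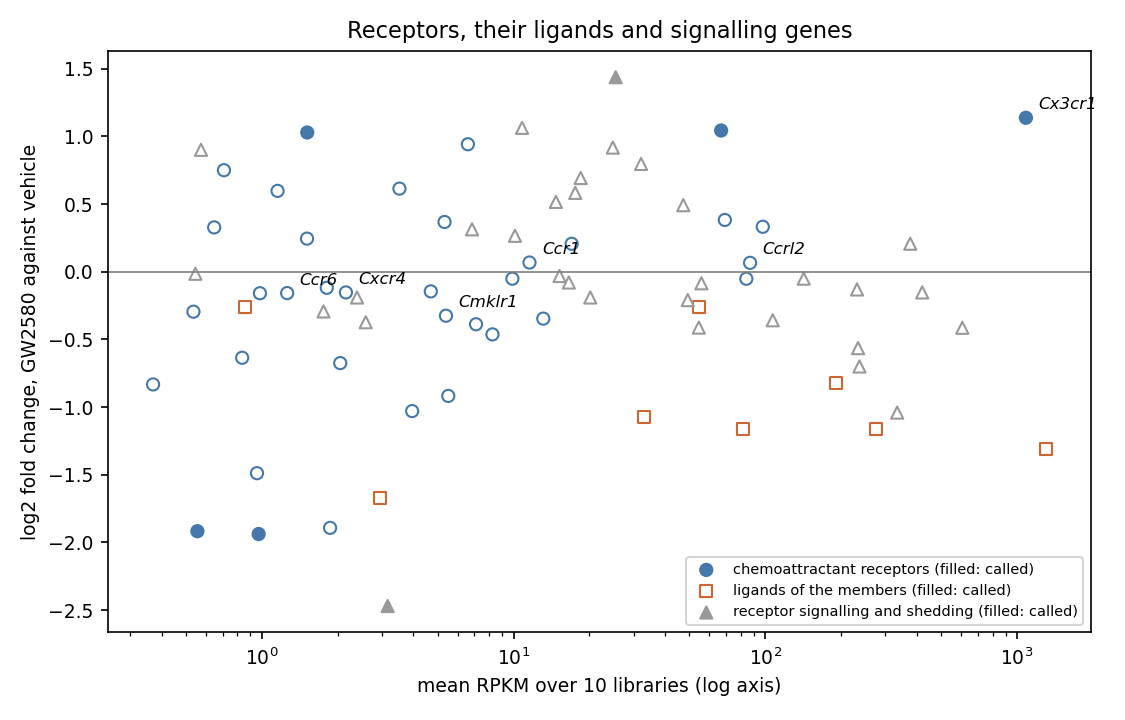
Log2 fold change of GW2580 against vehicle and mean RPKM over 10 libraries (log axis) of 36 chemoattractant receptors (circles), 8 ligands of the members (squares) and 31 signalling and shedding genes (triangles), filled where called, with the 6 tested members named. Cx3cr1 is the most abundant receptor and is called higher, and all 8 ligands lie below 0 with TMM scaling (7 with library size only).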

How the data were processed

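RNA of CD11b-selected brain microglia from 10 mice was measured, 5 with vehicle and 5 with GW2580, grouped by the sample labels. Read pairs had been aligned by the authors to GRCm38 (STAR), and the deposited values are whole-number counts of fragments per RefSeq gene and library, not normalized and not using strand (featureCounts 1.6.3 in their header). Symbols and coordinates came from the RefSeq GRCm38.p6 tables.

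The filter was over 1 CPM in 3 or more libraries, and the 28419 genes that passed were scaled by TMM and fitted with the quasi-likelihood F test of edgeR 4.0.16 (R 4.3.3), treatment being the only term. A call was a fold change over 2 with unadjusted p under 0.05, as in the study, and each adjusted p is by Benjamini-Hochberg over all genes of this fit. The standard error was the log2 fold change over the square root of F. Log2 CPM used a prior count of 2. RPKM was CPM per kilobase of exon. The fits were tested on simulated counts. Exact permutation tests were two-sided, run in Python 3.11.15 with scipy 1.17.1.

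The members and lists were chosen with earlier results of these data known. Named were the members, the called genes and the 3 of highest mean RPKM in each pathway list, and the genes nearest each member (5 for Cx3cr1, 3 for the others). Lengths of overlap, the Poisson intervals and the marker values beside a result were added after seeing the data. Some genes are not reported here singly. No molecular identifiers were used, so fragments may repeat molecules. Alternatives included DESeq2 1.42.0 and limma-voom 3.58.1.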

Additional observations from a re-analysis of the deposited data

Results flagged for a closer look

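Ccr1 in Vehicle 1, at 60.3 CPM, lay far from the other 4 vehicle libraries (19.998 to 28.3 CPM). The gap to the nearest of them was 0.794 of the range of the group, above the 95% critical value of 0.71 of Dixon's test for 5 libraries. It was the only such value in 12 groups tested, and chance gives such a value in about 1 in 20 groups. Without Vehicle 1 the log2 fold change of Ccr1 was 0.42 ± 0.40, which did not pass the call.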

How the results depend on the processing

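Cx3cr1 was above 0 in all 28 alternatives and kept its call in 15. It lost the call without the filter (1.14), with limma-voom (0.98), with the replicate block (0.98), with the glial and neuronal marker mean added (1.03), in males (1.06), in females (1.14), relative to the microglia markers (0.79), at an adjusted p under 0.05 (1.14) and, an alternative chosen after seeing the data, without Vehicle 2 and Vehicle 5 (1.00). With 1 library left out, the log2 fold change was 0.75 to 1.23 for Cx3cr1, -0.10 to 0.42 for Ccr1, -0.35 to -0.01 for Ccr6, -0.13 to 0.26 for Ccrl2, -0.42 to 0.18 for Cxcr4 and -0.91 to -0.13 for Cmklr1. The sign turned for Ccr1 with the marker mean added (-0.11), without Vehicle 2 and Vehicle 5 (-0.20), in males (-0.039) and relative to the microglia markers (-0.17). It turned for Ccr6 with library size only (0.065), with the no-feature percentage added (0.10) and without Vehicle 2 and Vehicle 5 (0.0099). It turned for Ccrl2 with the marker mean added (-0.15), without Vehicle 5 and GW2580 5 (-0.14), without Vehicle 2 and Vehicle 5 (-0.21), in males (-0.018) and relative to the microglia markers (-0.17). It turned for Cxcr4 with library size only (0.11), upper-quartile factors (0.016), limma-voom (0.13), the replicate block (0.10), the no-feature percentage (0.13), the marker mean (0.035), without Vehicle 5 and GW2580 5 (0.19), without Vehicle 2 and Vehicle 5 (0.082) and in males (0.15). Cmklr1 passed the call without Vehicle 5 and GW2580 5 (-1.06) and in males (-1.27) and turned in females (0.15). With 1 library left out, Cx3cl1 ranged from -2.21 to 0.52, Gnai2 from -0.057 to 0.39 and Rgs1 from -0.36 to 0.099. Cx3cl1 turned with the marker mean (0.57), without Vehicle 5 and GW2580 5 (0.64) and without Vehicle 2 and Vehicle 5 (1.43), where Gnai1 also turned (0.76), Rgs1 with the no-feature percentage (0.082) and in females (0.16), and Rgs2 in females (0.049). Scaling by library size only moved the median of all genes by 0.26 (log2).

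Over all genes, 3046 were called, against 1684 to 4848 with 1 library left out, 4802 without the filter, 4610 with DESeq2, 1181 with the no-feature percentage, 6057 without Vehicle 5 and GW2580 5, 4621 in males, 794 in females and 0 at an adjusted p under 0.05. Of the receptors 5 were called, against 2 to 8 with 1 library left out, 2 with limma-voom, 3 with the replicate block or the no-feature percentage, 1 with the marker mean or in females, and 0 without Vehicle 2 and Vehicle 5 or at an adjusted p under 0.05. Of the ligands 0 were called, against 0 to 4 with 1 library left out, 1 with DESeq2 size factors, library size only or edgeR's filter, 2 with limma-voom, the exact test or the replicate block, 3 without the filter or with the marker mean, 4 with DESeq2 or without Vehicle 2 and Vehicle 5, and 5 without Vehicle 5 and GW2580 5 or in males. Of the signalling genes 2 were called, against 2 to 7 with 1 library left out, 4 with library size only or the no-feature percentage, 5 without Vehicle 2 and Vehicle 5, 9 without Vehicle 5 and GW2580 5, 7 in males, and 0 in females or at an adjusted p under 0.05. For these counts, the share of all tested genes called was 10.7% in the main fit and 6.07 to 17.6% with 1 library left out. Shares were 11% with DESeq2 size factors, 10.5% with library size only, 10.7% with edgeR's filter or DESeq2, and 10.9% without the filter. Limma-voom called 10.6%, the exact test 11.9%, the replicate block 8.99%, the no-feature percentage 4.16% and the marker mean 7.8%. Without Vehicle 2 and Vehicle 5 it was 8.5%, without Vehicle 5 and GW2580 5 22.3%, in males 19.2% and in females 3.09%. The cause of the differences between fits was not tested.

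The sample labels do not say that the replicate numbers pair the samples, and the main fit did not treat them as pairs. Correlations of deviations cannot decide whether same-numbered libraries shared a litter, batch or day. The deviations of same-numbered libraries from their group means correlated at 0.08, 0.13, -0.05, -0.07 and -0.39 across genes, and the block called 2554 genes. Ackr1 could not be fitted. The intervals of the 5 receptors that were not called end at 0.51 to 0.97 above 0 and at -1.28 to -0.81 below it (log2). Differences within the interval of a receptor are not excluded with 5 libraries a group, and the counts of Cxcr4 and Ccr6 add counting error.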

Other observations

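Among the other marker lists, the border macrophage markers had a summed level of 88.6 to 113 CPM with vehicle and 54.2 to 281 CPM with GW2580. It was highest in GW2580 3, the library with the highest Cx3cr1. All levels of GW2580 3 carry its TMM factor of 0.691, the lowest among the libraries. Of the 6 border macrophage genes tested, 1 was called higher, beside 4.01% of all tested genes, and their median log2 fold change was 0.96. Vehicle 5 had the highest summed markers of the next 3 cell types. The T and NK cell markers summed to 222 CPM in Vehicle 5, 37.2 to 94.8 CPM in the other vehicle libraries and 20.7 to 52.5 CPM with GW2580, and 3 of the 8 tested were called lower, beside 6.7% of all tested genes. Without Vehicle 5 and GW2580 5, 3 of the 8 were above 0 and 5 below, and their median log2 fold change went from -1.11 to -0.22. The choroid plexus and ependyma markers summed to 25668 CPM in Vehicle 5, 1203 to 2955 CPM in the other vehicle libraries and 151 to 3525 CPM with GW2580, and 4 of the 5 tested were called lower, beside the same 6.7%. Without both libraries 3 were called lower, beside 15.2%, and the median went from -2.48 to -1.16. The erythroid markers summed to 2145 CPM in Vehicle 5, 56.7 to 136 CPM in the other vehicle libraries and 49.6 to 400 CPM with GW2580, and their median turned from -1.09 to 0.61 without both libraries. The endothelial markers summed to 146 to 368 CPM and 116 to 305 CPM. The genes of the dissociation response summed to 30591 to 46526 CPM and 27224 to 88457 CPM, the highest again in GW2580 3, and 9 of the 11 tested had a log2 fold change above 0. The part of these cells and of the dissociation response in the level of Cx3cr1 was not tested.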
